A study of Xenopus tropicalis with 8 samples.

Results

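Ion channels let sodium, potassium, calcium or chloride cross membranes and so set the excitability of nerve and muscle, the salt transport of epithelia and the acidity of endosomes and lysosomes. Neurotransmitter receptors either are such channels, opened by glutamate, glycine, GABA, acetylcholine or ATP, or act through G proteins, as metabotropic glutamate receptors and most serotonin receptors do. In a frog embryo their transcripts come with the nervous system, the muscle, the pronephros and the epidermis, and many of them stay scarce in RNA of the whole animal. The genes described here are those on the array whose symbol begins with 1 of 16 prefixes for channel and receptor families (kcn, cacn, scn, clcn, trpc, trpm, trpv, gabr, gria, grik, grin, grm, chrn, htr, p2r and glr).

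Embryos of Xenopus tropicalis, the western clawed frog, were exposed during development to 887 ppm Disperse Yellow 7 (DY7), an azo dye of synthetic textiles, in 4 samples and received no treatment in 4 control samples. Both groups carry the same label of embryo stages 12 to 46; no strain, vehicle or number of embryos per sample is given in the sources used here, and nothing states that the samples came from separate clutches, so p-values measure the spread between these samples only. Total RNA of each sample was hybridised with Cy3 to 1 single-colour Agilent array. The study asked how the dye alters embryonic transcript levels.

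Of the 78 genes with such a symbol, read by 85 probes, 37 were measured, meaning that in DY7 or in control samples a probe exceeded its local background clearly on all 4 arrays. The brightest such probe stands for each gene. These 37 belong to 3436 named genes with a measured probe and to 20289 tested probes in all. Only 5891 of the 32899 probes could be given a gene name. Channel or receptor genes read by unnamed probes are therefore not seen here. Values are log2 intensities after subtraction of the 75th percentile of the array, called scaled log2 intensity below, and each fold change is the DY7 mean minus the control mean on that scale. A gene was called where the adjusted p of limma (Benjamini-Hochberg over all 20289 probes) lay under 0.05. The prefixes were a loose fit to the family name. Of the 37 genes, htra3 and htra4 encode serine proteases and scnm1 a splicing factor, so 34 encode subunits or partners of channels or receptors. Cross-hybridising probes, as the array design names them, read 9 of the 37, and specific probes 28.

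Array quality differed. The signal at the 75th percentile ran from 110.1 to 176.2 on DY7 arrays and from 143.8 to 283.7 on control arrays, and control 2 had the fewest probes well above background, 51.6% against 64.0% to 75.9% on the others. All 37 genes cleared background on all 4 DY7 arrays. Of the 37, 29 did so on all 4 control arrays as well, and the other 8 missed it on control 2 alone, so they entered through the DY7 arrays: kcna7, kcnb2, kcnh4, kcnj14, clcn6, p2rx1, htr5a and scnm1. Where one of these 8 was higher in DY7, the filter lay on the side of the difference. The dimmest to enter included clcn6, with mean unscaled intensities of 22.3 in DY7 and 35.1 in control samples. Just outside lay grin3a, at 20.1 in DY7 and 33.5 in control samples. These intensities are not comparable between groups before scaling, and after it the log2 fold change of clcn6 was -0.04. Within DY7, arrays 2 and 3 stood apart from arrays 1 and 4 for several genes below. Controls 2 and 3 were also the highest controls for grm2, glra3 and kcnq1. For scnn1a control 2 was the lowest control, and for gria1 controls 2 and 3 were.

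A single gene of the 37 was called, the potassium channel gene kcna10, which was lower in DY7. Over the whole table, 13.4% of probes were called (9.07% higher and 4.34% lower in DY7), against 2.70% of the 37 genes. The difference between these shares was not tested. At an unadjusted p under 0.05 there were 10 of the 37 (27.0%), beside 33% of all probes. No label pairs the samples, and replicate numbers were used as pairs because of correlations in these same values. With the replicate number as a block, 3 of the 37 were called, kcna10 and clcn7 lower and grm2 higher, beside 24.9% of all probes (16% higher and 8.94% lower). Their median log2 fold change was -0.04, beside 0.06 for all tested probes, and the median size of the change, whatever its sign, was 0.20 beside 0.23. The standard error of the 37 (median 0.15) was close to that of all probes (0.14). For 19 of the 37 the 95% interval stayed within 1.5-fold in both directions, and for 33 it stayed within 2-fold. The 4 that could still have differed by more than 2-fold were grm2, scnn1a, glra3 and htra3.

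**Figure D1:**
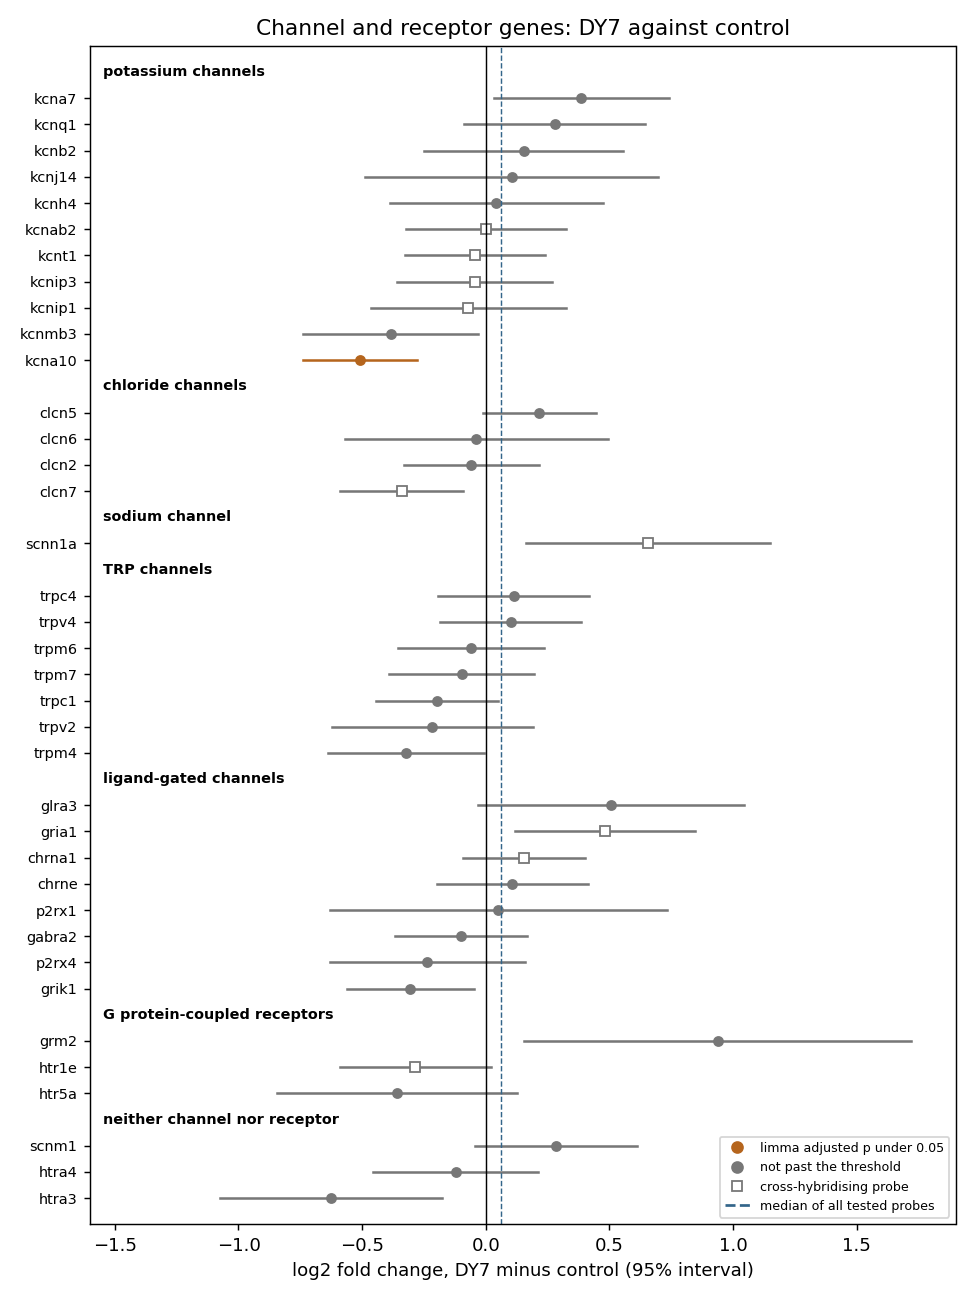
Log2 fold change (DY7 minus control, horizontal axis) of each of the 37 genes, listed down the page by class, with 95% intervals from limma. Only kcna10, at -0.51, is drawn as past the threshold; open squares mark the 9 cross-hybridising probes and the dashed line the median of all tested probes, 0.06.

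Voltage-gated potassium channels repolarise excitable cells after each impulse. The called gene kcna10 encodes a pore subunit of the Shaker type that is regulated by cyclic nucleotides and is found in mice in hair cells of the inner ear. Its scaled log2 intensity was -1.66, -1.46, -1.59 and -1.78 on DY7 arrays 1 to 4, against -1.05, -1.16, -1.16 and -1.09 on control arrays 1 to 4. The groups did not overlap, and each DY7 array lay below the control array of the same number. The log2 fold change was -0.51 ± 0.10 (SE, n = 4, limma adjusted p = 0.0155), a 1.42-fold lower level in DY7, with a 95% interval of -0.74 to -0.28. Within slide 1 the change was -0.46 and within slide 2 it was -0.56. The call was lost without control 4 (-0.50, adjusted p = 0.0522), without any filter on dim probes (adjusted p = 0.0660), within either slide alone, and with either background correction by normexp (-0.31 and, after extreme local backgrounds were repaired, -0.17). Over all alternatives its adjusted p ran from 0.00588 to 0.834.

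The other 10 potassium channel genes measured were not called, beside 13.4% of all probes called. The largest estimates among them were those of kcna7, another Shaker-type subunit, and kcnmb3, an accessory subunit of the calcium-activated channel. For kcna7 the DY7 arrays held a narrow band, -2.56 to -2.40, against -3.26 to -2.51 on the control arrays, where the lowest value was that of control 2. Its log2 fold change was 0.39 ± 0.16 (SE, n = 4, limma adjusted p = 0.124). As kcna7 passed the background filter only through DY7, the filter lay on the side of that difference. For kcnmb3 the values were -1.65, -1.52, -1.60 and -1.32 in DY7, against -0.78, -1.51, -1.22 and -1.04 in control samples. Control 2 lay inside the DY7 range. The change of kcnmb3 was -0.38 ± 0.16 (SE, n = 4, limma adjusted p = 0.126), and without control 2 it was -0.51 and passed (adjusted p = 0.0359). With control 2 kept, kcnmb3 did not pass with the replicate block (adjusted p = 0.107), quantile normalization (0.0561) or normexp (0.919).

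The gene kcnq1, whose channel carries the slow repolarising current of the heart, was higher in DY7 than in control samples in all 4 pairs of equal number, with a mean change of 0.28 ± 0.16 (SE, n = 4, limma adjusted p = 0.257). DY7 2 and 3 were the highest of its arrays. The remaining 7 were kcnb2 and kcnh4 (delayed rectifier and ether-a-go-go type pores), kcnj14 (an inward rectifier), kcnt1 (a sodium-activated channel), kcnab2 (a cytoplasmic beta subunit) and kcnip1 and kcnip3 (calcium-binding partners of fast inactivating channels). Their log2 fold changes ran from -0.07 for kcnip1 to 0.15 for kcnb2, with adjusted p-values of 0.575 or more.

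The probe chosen for a gene mattered for kcnip3. Its brighter cross-hybridising probe gave -0.04 ± 0.14 (limma adjusted p = 0.847, n = 4), while a dimmer one, also cross-hybridising, averaged -2.11 in DY7 and -1.56 in control samples and gave -0.56 ± 0.14 (adjusted p = 0.0320, or 0.0145 with the replicate block). Both probes of kcnip1 gave small values of opposite sign, -0.07 and 0.06. Which transcripts each of these probes reads was not tested.

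The 4 members of the clcn family measured here work in different membranes. In mammals, clcn2 encodes a chloride channel of the plasma membrane, clcn5 and clcn6 exchangers of endosomes, and clcn7 the chloride-proton exchanger of lysosomes. The cross-hybridising probe of clcn7 read 1.37, 1.21, 1.19 and 1.39 in DY7, against 1.73, 1.45, 1.56 and 1.77 in control samples. The groups lay apart, with DY7 lower. The change was -0.34 ± 0.11 (SE, n = 4) with a limma adjusted p of 0.0696, which missed the threshold, and with the replicate number as a block the adjusted p was 0.0279. It also passed with quantile normalization (-0.37), on the authors' log2 matrix (-0.31) and without control 2 (-0.40), and over all alternatives its adjusted p ran from 0.0279 to 0.9998.

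The endosomal gene clcn5 stood the other way. It had 1.34, 1.54, 1.25 and 1.22 in DY7, against 1.16, 1.12, 1.12 and 1.07 in control samples, again with no overlap. The gap was small, 0.22 ± 0.10 (SE, n = 4, limma adjusted p = 0.171), with a 95% interval of -0.01 to 0.45. The remaining 2 gave -0.06 for clcn2 and -0.04 for clcn6, and the interval of clcn6, -0.57 to 0.50, was wide, with control arrays from -3.39 on control 2 to -2.34 on control 3.

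In all, 4 of the 37 genes had no overlap between the groups: kcna10, clcn7 and grik1 with DY7 lower and clcn5 with DY7 higher. That is 10.8%, beside 20.9% of all tested probes (13% with DY7 higher and 7.91% with DY7 lower). The sign of the difference was the same in all 4 pairs of equal replicate number for 15 of the 37 (40.5%), beside 51.7% of all probes.

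**Figure D2:**
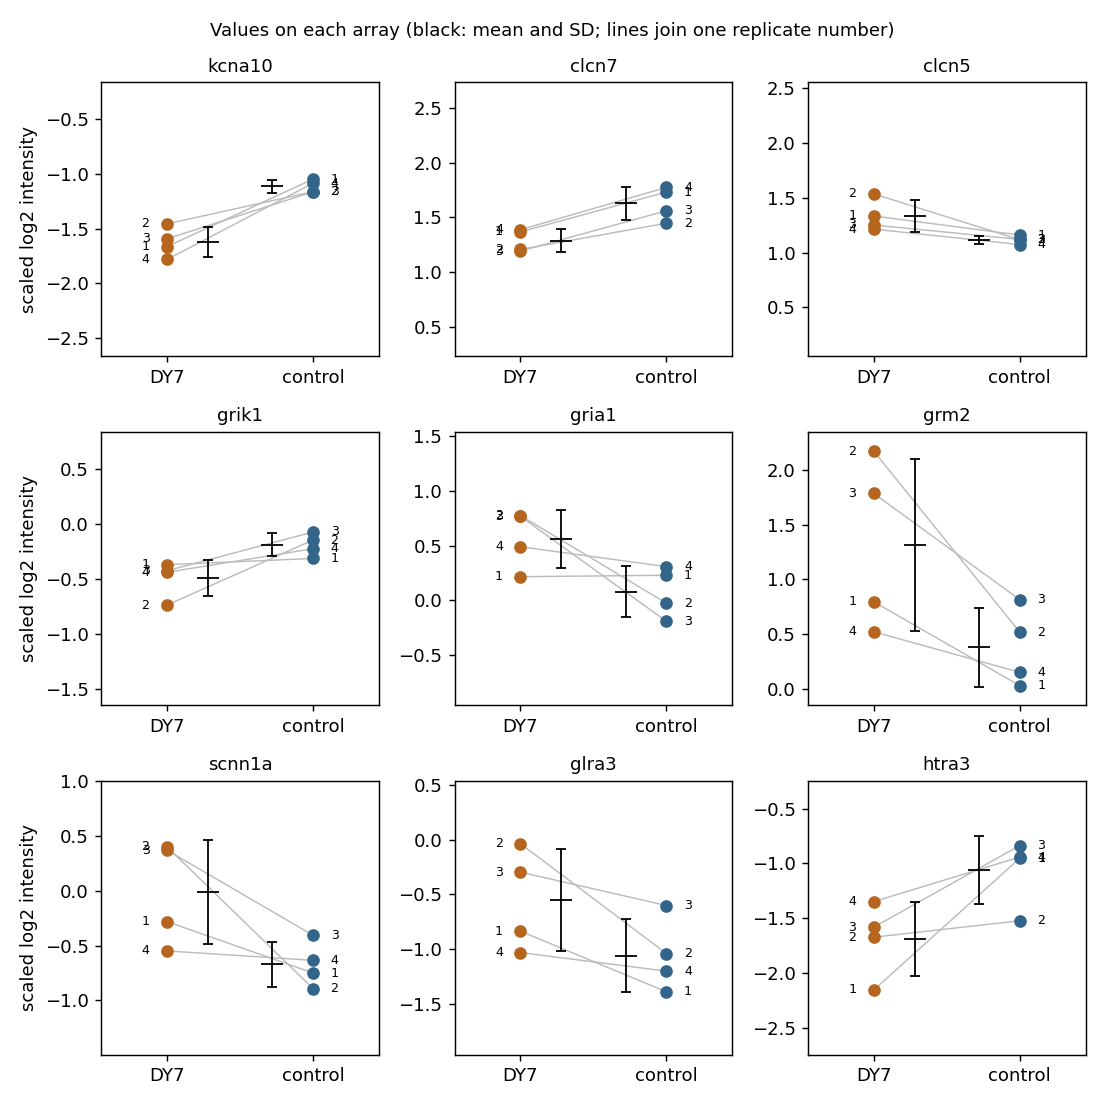
Scaled log2 intensity (vertical axis, the same span in every panel) of 9 genes on each array, DY7 at the left and control at the right of a panel; numbers are replicate numbers, grey lines join equal numbers, and black bars show the mean and SD of 4 arrays. The groups lie apart for kcna10, clcn7, clcn5 and grik1 and overlap for the other panels, and for grm2, scnn1a and glra3 the arrays DY7 2 and DY7 3 lie above DY7 1 and DY7 4.

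A single named sodium channel gene was measured, scnn1a, the alpha subunit of the epithelial sodium channel through which skin and kidney take up sodium. Its cross-hybridising probe read -0.28, 0.40, 0.37 and -0.55 in DY7, against -0.75, -0.89, -0.40 and -0.63 in control samples. DY7 2 and 3 were far above every control array, whereas DY7 4 lay inside the control range. The mean difference was the second highest estimate among the 37, 0.66 ± 0.22 (SE, n = 4), but its limma adjusted p was 0.0751. DY7 was higher in all 4 pairs, by 0.47, 1.29, 0.78 and 0.09 for numbers 1 to 4. Without DY7 4 the change was 0.83 and passed (adjusted p = 0.0293). With DY7 4 kept, scnn1a did not pass with the replicate block (adjusted p = 0.0609), quantile normalization (0.0708) or normexp (0.720).

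TRP channels are cation channels for sensory, osmotic and calcium signals. Of them 7 were measured with no call, beside 13.4% of all probes called. The lowest estimate was that of trpm4, a calcium-activated channel for monovalent cations. It read 0.30, 0.26, 0.27 and 0.70 in DY7, against 0.92, 0.48, 0.63 and 0.79 in control samples. DY7 lay below control in each pair of equal number, but DY7 4 overlapped the controls, and the change was -0.32 ± 0.14 (SE, n = 4, limma adjusted p = 0.144). Next came trpv2, a calcium-permeable channel (-0.22 ± 0.18, adjusted p = 0.428), and trpc1, a subunit of receptor-operated channels (-0.20 ± 0.11, adjusted p = 0.234). Osmotically sensitive trpv4, the magnesium-permeable channel kinases trpm6 and trpm7 and trpc4 ran from -0.10 for trpm7 to 0.11 for trpc4, and their 95% intervals all stayed within 1.5-fold.

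Glutamate receptors gave the most varied values of the receptor classes. The AMPA receptor subunit gene gria1, whose product carries fast excitatory currents, had 0.22, 0.77, 0.77 and 0.49 in DY7, against 0.23, -0.03, -0.19 and 0.31 in control samples. DY7 1 lay within the control range and the other DY7 arrays lay above all of it. The change of 0.48 ± 0.16 (SE, n = 4) had a limma adjusted p of 0.0751. Without DY7 1 the change was 0.60 and passed (adjusted p = 0.0468). With DY7 1 kept, gria1 did not pass with the replicate block (adjusted p = 0.107), quantile normalization (0.0601) or normexp (0.822). A second, dimmer probe of gria1 averaged 0.53 in DY7 and -0.03 in control samples, and its change of 0.56 ± 0.15 passed with an adjusted p of 0.0425 (0.0544 with the replicate block). Both are cross-hybridising probes.

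The kainate receptor subunit gene grik1 read -0.37, -0.74, -0.42 and -0.44 in DY7, against -0.31, -0.14, -0.07 and -0.22 in control samples. Every DY7 array was below every control array. The change was -0.30 ± 0.11 (SE, n = 4), with a limma adjusted p of 0.1001 and a 95% interval of -0.56 to -0.05, and no alternative setting brought it past the threshold (0.0693 to 0.9998). The interval of gria1 was 0.12 to 0.84.

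The largest estimate among the 37 was that of grm2, a G protein-coupled glutamate receptor that damps glutamate release at nerve endings. It had 0.80, 2.17, 1.78 and 0.52 in DY7, against 0.03, 0.52, 0.82 and 0.15 in control samples. DY7 2 and 3 stood above every control array, and DY7 1 and 4 overlapped the controls. The SD was 0.79 in DY7 and 0.36 in control samples. The change was 0.94 ± 0.35 (SE, n = 4, limma adjusted p = 0.0982), or 1.92-fold, with a 95% interval of 0.16 to 1.72. DY7 exceeded control in all 4 pairs, by 0.77, 1.65, 0.97 and 0.37 for numbers 1 to 4, and with the replicate number as a block it was called (adjusted p = 0.0290). Within slide 1 the change was 1.21 and within slide 2 0.67. Without DY7 4 it was 1.21 and passed (adjusted p = 0.0414), and over all alternatives the adjusted p ran from 0.0290 to 0.456.

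Inhibitory receptor channels were represented by glra3, a glycine receptor subunit, and gabra2, a GABA-A receptor subunit. The glycine receptor gene glra3 read -0.84, -0.04, -0.30 and -1.03 in DY7, against -1.39, -1.04, -0.60 and -1.20 in control samples. As for grm2, DY7 2 and 3 were highest, and DY7 was higher in all 4 pairs, but the groups overlapped. The change of glra3 was 0.51 ± 0.24 (SE, n = 4, limma adjusted p = 0.171), 0.78 within slide 1 and 0.24 within slide 2. For gabra2 the change was -0.10 ± 0.12 (adjusted p = 0.581) and a 95% interval of -0.37 to 0.17.

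The acetylcholine receptor genes measured, chrna1 and chrne, both encode subunits of the receptor at the nerve-muscle junction. On chrna1 the DY7 arrays held 4.14, 3.81, 3.97 and 4.11, against 3.96, 3.72, 3.84 and 3.89 in control samples, by a cross-hybridising probe. DY7 was higher in each pair, yet the groups overlapped. The change of chrna1 was 0.15 ± 0.11 (SE, n = 4, limma adjusted p = 0.352), with a 95% interval of -0.09 to 0.40, and that of chrne was 0.11 ± 0.14. Over the same arrays, 4 measured genes of a skeletal muscle list had a mean scaled log2 level of 2.22 to 2.58 in DY7 and 2.75 to 2.98 in control samples. Of the 4, 1 was called lower (beside 4.34% of all probes), the slow troponin gene tnnt1 (-0.99 ± 0.12, adjusted p = 0.00238). Its call was lost with normexp (0.278). The others gave -0.43 for neb, -0.26 for pvalb and -0.07 for myh6, none of them called. In mammals myh6 encodes a heart myosin, so the list mean is not of skeletal muscle alone. It was the brightest of the 4, at 6.51 in DY7 and 6.58 in control samples. Whether the amount of muscle plays a part in the receptor values was not tested. In RNA of whole embryos, fewer cells of a type and less RNA per cell cannot be told apart.

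Receptors for ATP and serotonin completed the set. The ATP-gated channel genes p2rx4 (-0.24 ± 0.18, adjusted p = 0.372) and p2rx1 (0.05 ± 0.30, adjusted p = 0.925) were not called, and p2rx1 stood at -3.73 on control 2 and at -2.53 to -2.29 on the other controls. The serotonin receptor genes htr1e and htr5a, both coupled to inhibitory G proteins in mammals, were lower on average in DY7 but were not called. For htr1e the values were -0.04, -0.36, -0.38 and -0.08 in DY7, against 0.26, -0.22, 0.07 and 0.17 in control samples, a difference of -0.28 ± 0.14 (SE, n = 4, limma adjusted p = 0.176) on a cross-hybridising probe. For htr5a they were -2.24, -2.60, -2.36 and -2.10 in DY7, against -1.76, -2.65, -1.67 and -1.77 in control samples. Control 2, where htr5a did not clear background, lay below every DY7 array, and the other controls lay above all of them. The change of htr5a was -0.36 ± 0.22 (adjusted p = 0.271), and without control 2 it was -0.59 and passed (adjusted p = 0.0209). With control 2 kept, htr5a did not pass with the replicate block (adjusted p = 0.0983), quantile normalization (0.0922) or normexp (0.9998).

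Of the 3 genes that share a prefix but are neither channel nor receptor, htra3, a secreted serine protease, had the lowest estimate among the 37. It read -2.16, -1.68, -1.58 and -1.35 in DY7, against -0.95, -1.52, -0.84 and -0.94 in control samples. Control 2 overlapped DY7. The change was -0.63 ± 0.20 (SE, n = 4, limma adjusted p = 0.0648), and it passed without control 2 (-0.78, adjusted p = 0.0211), without DY7 4 (-0.74), with quantile normalization (-0.71), with median scaling (-0.76), on the authors' log2 matrix (-0.69), with the slide as a block (adjusted p = 0.0394) and over probes above background on all 8 arrays (adjusted p = 0.0469), with adjusted p-values from 0.0202 to 0.915 over all alternatives. The related protease gene htra4 gave -0.12 ± 0.15 and the splicing factor gene scnm1 0.28 ± 0.15, neither called. As scnm1 passed the background filter only through DY7, the filter lay on the side of its estimate. Both kcnip genes encode partners of channels. Without them and the 3 genes that are neither channel nor receptor, 1 of 32 was called, beside 13.4% of all probes. The median log2 fold change of the 32 was -0.02, beside 0.06 for all tested probes.

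**Figure D3:**
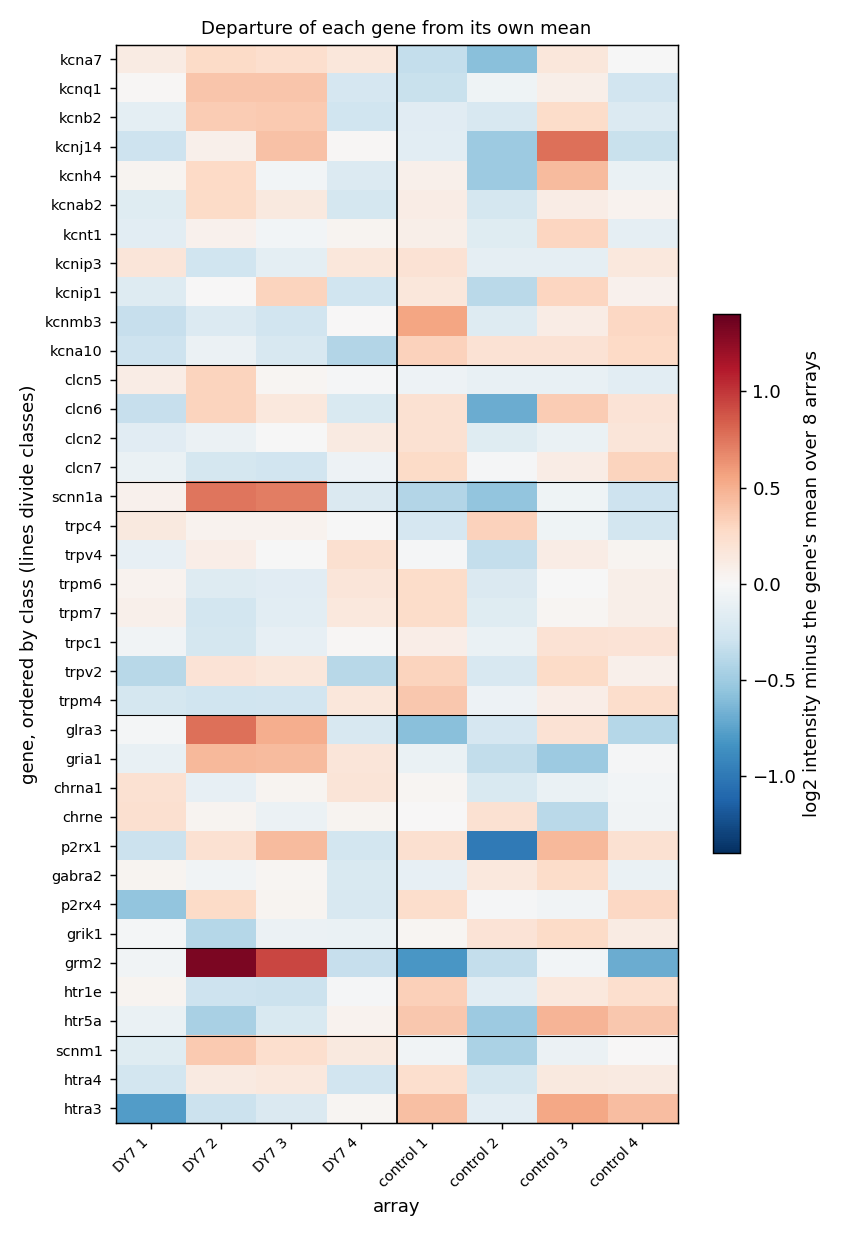
Scaled log2 intensity of each of the 37 genes minus its own mean over the 8 arrays (colour, log2 units), with genes down the page by class and the 4 DY7 arrays left of the 4 control arrays. Control 2 is the lowest array for p2rx1 and clcn6, and DY7 2 and 3 are the reddest arrays for grm2, scnn1a and glra3.

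These counts changed with the arrays and the scaling used. Without control 2, 5 of the 37 were called, all lower in DY7 (kcna10, clcn7, kcnmb3, htr5a and htra3). That is 13.5% beside 16.4% of all probes (8.71% higher and 7.69% lower), and the median of the 37 was -0.12 beside 0.03. Without DY7 4, 4 were called (grm2 and scnn1a higher, kcna10 and htra3 lower), beside 14.4% of all probes (9.84% higher and 4.59% lower). With median scaling, under which the median of all probes was -0.07, kcna10 and htra3 were lower, beside 10.3% of probes (4.35% higher and 5.97% lower). With quantile normalization kcna10, clcn7 and htra3 were lower, beside 17.9% (9.69% higher and 8.17% lower), and the same 3 genes were lower on the authors' log2 matrix, beside 20.2% (12.1% higher and 8.12% lower). Over probes above background on all 8 arrays, kcna10 and htra3 were lower of 29 genes, beside 18.1% of 16694 probes (11.1% higher and 6.97% lower).

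The 41 genes that did not enter include every named gene of some prefixes, though unnamed probes can hold others of the same families. Neither named cacn gene (cacna2d2 and cacng3, accessory subunits of calcium channels) was measured. Nor was the 1 named grin gene, the NMDA receptor subunit gene grin3a. Of 30 kcn genes 11 entered, of 9 htr genes 4, of 6 p2r genes 2 and of 5 chrn genes 2, whereas all 4 clcn, all 3 trpm and both trpv genes did. Of the 41, 18 lay well above background on no array, 13 on 1 to 3 arrays and 10 on 4 to 7 arrays. With no filter, limma called 0 of the 78 genes, beside 1.48% of 32832 probes (0.911% higher and 0.567% lower). An unadjusted p under 0.05 was found for 9 of the 78 genes and for 6366 of the 32832 probes.

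Genes that act beside these channels were also read. Among genes of calcium stores, pumps and exchangers, 2 of 9 were higher in DY7 and none lower, beside 9.07% of all probes higher and 4.34% lower. They were slc8a3, a sodium-calcium exchanger of the plasma membrane (0.70 ± 0.11, limma adjusted p = 0.00653, n = 4), and srl, which encodes the sarcoplasmic reticulum protein sarcalumenin (0.66 ± 0.13, adjusted p = 0.0136), both on cross-hybridising probes. The call of srl was lost without a filter (adjusted p = 0.0614) and with either normexp. That of slc8a3 was lost with normexp (adjusted p = 0.275) but kept after extreme local backgrounds were repaired (0.0117). The related exchanger slc8a2 stood at 0.26 ± 0.09 (adjusted p = 0.0905), and the calcium release channel gene ryr1 at -0.32 ± 0.16 (adjusted p = 0.198). Of 5 genes of transmitter synthesis, breakdown and uptake, 2 were higher and none lower, beside 9.07% of all probes higher and 4.34% lower. They were maob, which breaks down amines (0.93 ± 0.12, adjusted p = 0.00347), and bche, a cholinesterase (0.52 ± 0.12, adjusted p = 0.0280). The cholinesterase of synapses, ache, gave 0.19 ± 0.13 (adjusted p = 0.352), and chat, which makes acetylcholine, gave -0.05 ± 0.14. The call of bche was lost with median scaling (0.38, adjusted p = 0.0909), without a filter (0.0977), with normexp (0.962), and without DY7 2, DY7 3, control 1, control 3 or control 4 (0.0511 to 0.0824). That of maob held with each array left out but was lost with normexp (0.494). The lost calls listed here for srl, slc8a3, bche, maob, tnnt1, nefl and rom1 leave out the fits within 1 slide alone. Those fits called only 17 (slide 1) and 4 (slide 2) of all tested probes. The median of the calcium list was 0.26 and that of the transmitter list 0.19, beside 0.06 for all probes.

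None of 3 synaptic vesicle genes, 4 postsynaptic genes, 3 pump genes, 9 other channel genes and 6 other transmitter receptor genes was called by limma, beside 13.4% of all probes. Of them, 0, 1, 0, 2 and 2 had an unadjusted p under 0.05, beside 33% of all probes. With the replicate block the postsynaptic scaffold gene dlg3 (adjusted p = 0.0469) and the adrenergic receptor gene adrb1 (adjusted p = 0.0438) were lower, beside 8.94% of all probes. Estimates ran from -0.21 for ano6 to 0.44 for piezo1 among the other channels, and from -0.38 for adrb1 to 0.45 for adra1a (adjusted p = 0.0560) among the other receptors. Of 8 neuron markers, 1 was lower, beside 4.34% of all probes. It was the neurofilament gene nefl (-0.47 ± 0.12, limma adjusted p = 0.0319, n = 4), whose call was lost without DY7 2 (0.0887), DY7 3 (0.0899), control 1 (0.0649) or control 4 (0.0764), without a filter (0.105) and with normexp (0.9998). The mean level of the neuron list ran from -0.15 to 0.09 in DY7 and from -0.19 to 0.23 in control samples. Of 7 photoreceptor markers, rom1 was lower (-0.77 ± 0.16, adjusted p = 0.0190), beside 4.34% of all probes. Its call was lost without DY7 2 (0.0537), control 1 (0.0579) or control 4 (0.0581), without a filter (0.0774) and with normexp (0.482). Of the same 7, 2 were higher, beside 9.07% of all probes. The guanylate cyclase gene gucy2d (0.67 ± 0.18, adjusted p = 0.0393) was higher but lost its call under 16 of 22 alternatives, the replicate block among them (0.0657). The phosphodiesterase gene pde6c passed the background filter only through DY7, with 3 of 4 control arrays above background, and its estimate of 0.83 ± 0.24 (adjusted p = 0.0490, from 0.0273 to 0.9998 over the alternatives) had the filter on the side of the difference. With the replicate block 0 of the 7 were higher and 1 lower, beside 16% and 8.94% of all probes. None of 7 pronephros markers was called by limma, beside 13.4% of all probes, and 3 had an unadjusted p under 0.05, beside 33%. With the replicate block the sodium-chloride cotransporter gene slc12a3 was higher (0.85, adjusted p = 0.0350), beside 16% of all probes. The single gene measured from the heart list, tnnt2, gave -0.14, and no glia marker was measured.

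**Figure D4:**
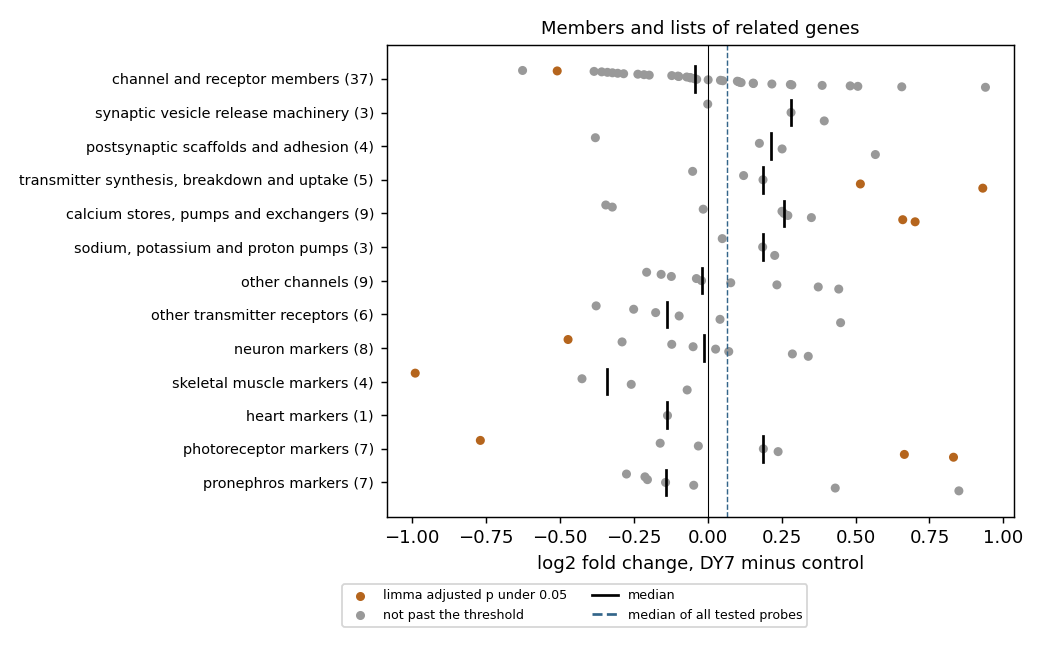
Log2 fold changes (DY7 minus control, horizontal axis) of the 37 genes chosen by prefix and of the measured members of 12 lists of related genes. The number of genes is in parentheses. Black bars are list medians, the dashed line is the median of all tested probes, and coloured points passed the limma threshold: 1 of 37 in the first line and 2 of 9 among calcium stores, pumps and exchangers, beside 13.4% of all tested probes.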

How the data were processed

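Per the file headers, intensity was read by Feature Extraction software of Agilent (10.7.3.1 for slide 1, 10.7.1.1 for slide 2), with background correction and spatial detrending inside an array and no step across arrays. The authors' deposited matrix is on a log2 scale, and its columns correlated with log2 intensity at 0.986 or higher. Its column medians, from 5.17 to 5.19 on DY7 arrays and from 5.10 to 5.27 on control arrays,, differ little, and how they were scaled or centred is not stated.

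An array had 45220 spots, 1417 of them controls, and 32899 probes. Spots with outlier flags were dropped, replicate spots averaged, and the 75th percentile subtracted. The filter kept 20321 probes, of which 32 lacked an array because of flags, so 20289 were tested. No spot was saturated. Accessions without versions were matched to RefSeq genes of UCB_Xtro_10.0 for names only (5891 probes), and the array design is on another build, so no coordinates are given. Groups were compared with limma 3.58.1 in R 4.3.3, two-sided, without covariates. Standard errors are of the difference between means of 4 arrays. The fit was also run on simulated arrays with independent normal noise. Deviations are shared between the real arrays, so that run cannot vouch for the calls here.

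Replicate numbers were taken to pair the samples for the block, since deviations from group means of equally numbered arrays correlated at 0.306, 0.107, 0.455 and 0.449, each over 0.1. Unequal numbers ran from -0.389 to 0.305, and DY7 2 correlated better with control 3 (0.305) than with control 2, so the pairing is a hint from the data and no label states it. Named genes were all called members, the smallest p and largest change per prefix, prefix matches that are no channel or receptor, and up to 2 called genes per related list; others given values were chosen after their values were seen. Members and lists were chosen with earlier results of these data known. Files held no mean foreground column, so normexp (offset 50) used median signals.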

Additional observations from a re-analysis of the deposited data

Results flagged for a closer look

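Over 57 of the genes described with values, 114 groups of 4 arrays were checked for 1 array far from the other 3. The check left out neb, pvalb, myh6 and grin3a. It found 9 such arrays. Independent groups of normal values would give about 1 in 20. The 114 groups share the same arrays, and some genes were chosen after their values were seen, so that rate is no test here. Control 2, the dimmest array by share of probes above background, was the outlying array in 7 of the 9. There htr5a stood at -2.65, with the other controls from -1.77 to -1.67, htra3 at -1.52 (others from -0.95 to -0.84), clcn6 at -3.39 (others from -2.50 to -2.34) and p2rx1 at -3.73 (others from -2.53 to -2.29). On the same array kcnab2 read -2.15 (others from -1.85 to -1.80), the scramblase gene ano6 -3.25 (others from -2.53 to -2.43) and the photoreceptor gene rom1 0.76 (others from 1.30 to 1.39). The change of htr5a and of htra3 passed the limma threshold without that array. The remaining arrays were DY7 4 for trpm4, at 0.70 with the other DY7 arrays from 0.26 to 0.30, and control 3 for kcnb2, at -2.12 with the other controls from -2.59 to -2.52. The part of array quality in these values was not tested.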

How the results depend on the processing

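Of the same 57 genes, which leave out neb, pvalb, myh6 and grin3a, 17 took the opposite sign under some alternative. None of the 17 was called in limma, and none of the opposite values passed the threshold. With quantile normalization these were kcnab2 (-0.11), kcnh4 (-0.12), kcnj14 (-0.070), p2rx1 (-0.14). With the 75th percentile over distinct probes these were kcnab2 (-0.0046). With median scaling these were chrne (-0.026), kcnab2 (-0.13), kcnh4 (-0.090), kcnj14 (-0.029), p2rx1 (-0.082), trpc4 (-0.020), trpv4 (-0.033). With normexp these were clcn2 (0.0030), kcnab2 (-0.091), kcnb2 (-0.013), kcnh4 (-0.061), kcnip3 (0.0040), kcnj14 (-0.035), p2rx1 (-0.12), tnnt2 (0.0036), trpv4 (-0.013). With repaired normexp these were ano6 (0.14), chat (0.21), chrne (-0.012), clcn6 (0.15), kcnip1 (0.086), kcnt1 (0.17). With the authors' matrix these were kcnab2 (-0.094), kcnh4 (-0.090), kcnj14 (-0.063), p2rx1 (-0.11). With slide 1 alone these were clcn6 (0.24), kcnip1 (0.023), kcnt1 (0.0022). With slide 2 alone these were chat (0.021), clcn2 (0.022), kcnab2 (-0.12), kcnh4 (-0.29), kcnip3 (0.0046), kcnj14 (-0.013), p2rx1 (-0.23). With 1 array left out, the changes ran from -0.18 to 0.015 for chat, -0.13 to 0.0027 for clcn2, -0.27 to 0.076 for clcn6, -0.089 to 0.083 for kcnab2, -0.12 to 0.20 for kcnh4, -0.21 to 0.018 for kcnip1, -0.11 to 0.042 for kcnip3, -0.049 to 0.38 for kcnj14, -0.11 to 0.049 for kcnt1, -0.27 to 0.21 for p2rx1, -0.14 to 0.016 for trpm6. Of all values of single genes under alternatives, 1073 kept sign and side of the threshold, 64 took the opposite sign, 78 lost a call and 28 gained one. The called probes (2720) came to 14 with normexp, 1376 with normexp after extreme local backgrounds were repaired, 4099 on the authors' matrix, 485 without a filter, 5057 with the replicate block, and 17 and 4 within slides 1 and 2. Leaving out 1 array gave 1008 to 3329. The count of the 37 genes called (1) came to 3 with quantile normalization, on the matrix and with the replicate block. It came to 2 with median scaling, with the slide as a block and over probes above background on all 8 arrays. It was 0 with either normexp, without a filter and within either slide. Except with the replicate block, these counts of 3 and 2 included htra3, which is neither channel nor receptor. At an unadjusted p under 0.05, those settings with 0 calls gave 1 and 6 (normexp), 9, and 5 and 4. Over all tested probes the same settings gave 1439 and 6487, 6366, and 3437 and 3308. Leaving out 1 array gave 0 to 5 (0 without control 4, 5 without control 2, 4 without DY7 4, 2 without DY7 1). Of all tested probes, 5.15% were called without control 4, 16.4% without control 2, 14.4% without DY7 4 and 9.57% without DY7 1. Blocking by slide called 12.8% of them, against 13.4% for the same arrays with no block. The median log2 fold change of the 37 genes, -0.04, was -0.18 with median scaling. The share of higher calls over all probes was 67.7%, against 54.3% (quantile normalization), 42.1% (median scaling) and 53.1% (control 2 left out). A 75th percentile over distinct probes, chosen after seeing the data, called 1 gene. The cause of these changes was not tested. Nearness to background limits the dimmest genes.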
